A study of Homo sapiens with 8 samples.

Results

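The human nuclear genome encodes the proteins of the mitochondrial ribosome, and most of their genes are named MRPL or MRPS followed by a number. All genes in the count table with such a name were taken, which gave 78 of 19447 genes, 49 named MRPL and 29 named MRPS. By the place of their products, 51 belong to the large ribosomal subunit, 26 to the small subunit, and MRPS36 encodes a subunit of the 2-oxoglutarate dehydrogenase complex. MRPS18A and MRPS30 carry an S in their names, but their products sit in the large subunit. The genes were followed in K562, a human leukaemia cell line that carries BCR-ABL1, in 8 RNA-seq libraries of genotype WT by the labels. Libraries came from cells without Lip-1 at Day 0 (controls 1 to 4), from cells given 10 µM Lip-1 for 24 h and labelled Day 1 (replicates 2 to 4), and from cells given 20 µM for 24 h and labelled Day 1 (replicate 1 alone). The labels do not spell out Lip-1, which usually abbreviates liproxstatin-1, a compound that blocks lipid peroxidation. The labels name no vehicle for the controls. Treatment and day coincide in every library, so Lip-1 and day cannot be told apart.

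Mitochondrial ribosomes translate only the few proteins that the mitochondrial genome encodes, all of them parts of the respiratory chain and ATP synthase. Their proteins are made in the cytosol from nuclear genes, imported, and assembled on mitochondrial ribosomal RNA with the help of dedicated GTPases, helicases and methyltransferases. Some descend from bacterial ribosomal proteins, while others were added in the mitochondrial lineage and have no bacterial counterpart. Loss of function of several members, among them MRPL3, MRPL12, MRPL44, MRPS2, MRPS16, MRPS22 and MRPS34, causes inherited deficiencies of oxidative phosphorylation.

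Each library held 71151415 to 141307169 counts, and every member had at least 419 counts in every library, so all 78 passed the filter on low counts. Erythroid markers (9 genes) were present in all libraries, with sums of 4940 to 8041 CPM (counts per 1000000 counts of the library) in controls, 4467 to 5518 CPM at 10 µM and 3213 CPM at 20 µM. The erythroid transcription factor GATA1 had 184.8 to 253.7 CPM in controls, 184.4 to 234.7 CPM at 10 µM and 63.5 CPM at 20 µM. KLF1, another such factor, had 152.6 to 176.3 CPM in controls, 80.9 to 148.2 CPM at 10 µM and 29.3 CPM at 20 µM, so it was below every control at both doses. Markers of other cell types (7 genes) summed to 31.9 to 55.0 CPM in controls, 33.5 to 43.6 CPM at 10 µM and 29.3 CPM at 20 µM, most of it EPCAM, with the granulocyte genes MPO and ELANE at or near 0. COL1A1, a fibroblast marker, had 0 to 2.45 CPM in controls, 0.206 to 0.360 CPM at 10 µM and 9.33 CPM at 20 µM. The part of these shifts in the results was not tested. The submitters named some libraries with letters (controls 1 and 4, 10 µM replicate 4 and the 20 µM library) and the others with digits, and the labels do not call this a batch. No label says that replicates came from separate cultures, so the p-values measure the spread between these libraries, which may be technical. RNA was measured in bulk, so fewer cells that use a gene and less of its RNA per cell cannot be told apart. Many ribosomal protein genes of the mitochondrion have processed pseudogenes, and how reads shared with them were counted is not given in the sources used here.

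In untreated cells the RNA of every member was detected, at levels that spanned 13.7-fold per kilobase of median transcript length. Per kilobase of transcript, the control level ran from 16.3 to 223.4 CPM per kb, with a median of 68.2 and quartiles of 42.0 and 94.9 CPM per kb. MRPL49 (223 ± 17.6 CPM per kb, SD, n = 4), MRPL51 (170 ± 9.37) and MRPL12 (159 ± 13.6) had the highest levels per kb. The lowest were in MRPL22 (16.3 ± 1.35), MRPL57 (17.4 ± 2.35) and MRPS31 (17.6 ± 1.02). MRPL51 and MRPL12 did not differ beyond their spread, and neither did MRPL57 and MRPS31. This order rests on the median length of a gene's annotated transcripts, and across the 78 genes its Spearman correlation with the order by the longest transcript was 0.76. By the longest transcript the order changed at both ends. MRPL12 (159 CPM per kb), MRPS34 (152) and MRPL37 (146) were then highest, MRPL51 stood at 75.8 and MRPL49 at 56.4, and MRPS33 (5.00), MRPL42 (8.52) and MRPS11 (13.4) were lowest. Within the controls a member's CPM varied little, with a median coefficient of variation of 7.99%.

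Under Lip-1 the messenger RNAs of mitochondrial ribosomal proteins were lower almost as a set. The 78 genes together took 0.656%, 0.675%, 0.684% and 0.632% of all counts in controls 1 to 4, 0.549%, 0.520% and 0.493% in 10 µM replicates 2 to 4, and 0.327% in the 20 µM library. The groups did not overlap, and the 20 µM library was the lowest. The middle member stood at 79.2% of its control mean at 10 µM and at 49.1% at 20 µM. No member was under 50% of control at 10 µM (range 57.9% to 106%), and 41 were at 20 µM (range 13.5% to 115%).

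**Figure D1:**
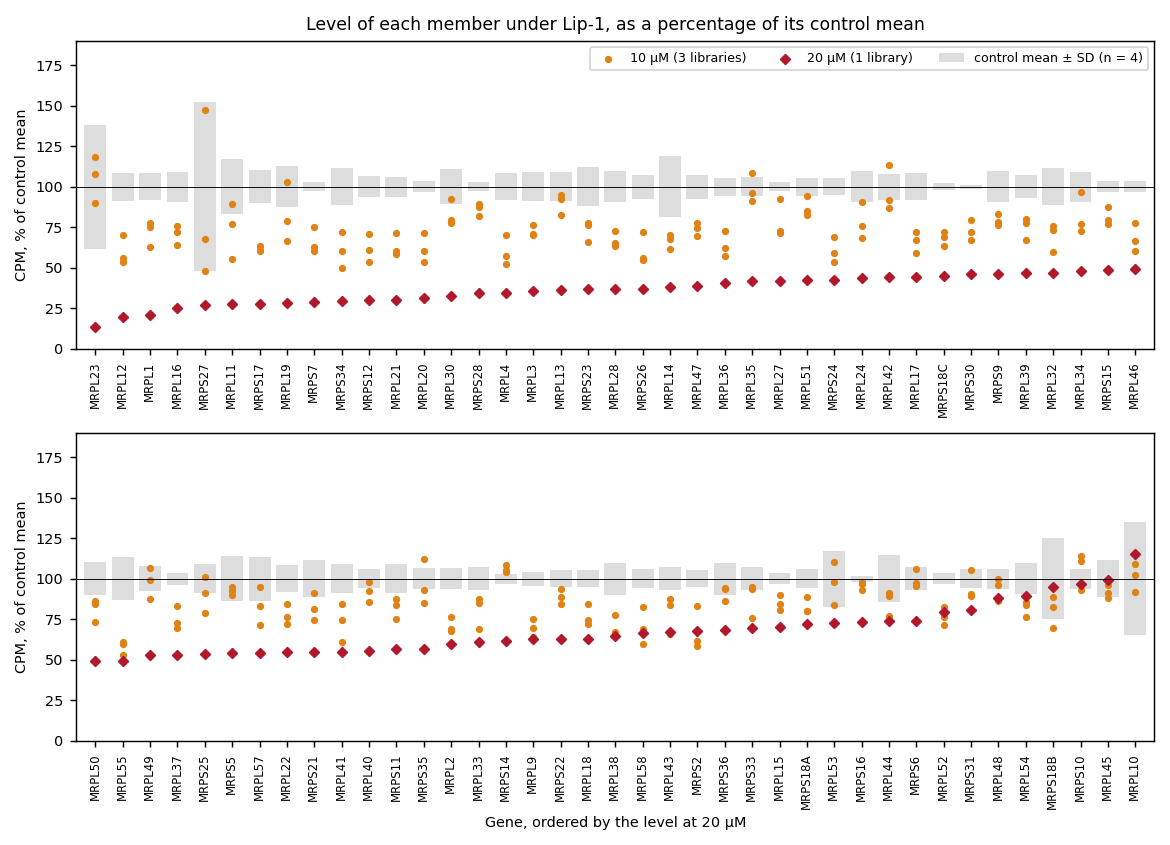
CPM of each of the 78 members in the 3 libraries at 10 µM (circles) and the single library at 20 µM (diamonds), as a percentage of the member's control mean, with grey bands for the control mean ± SD (n = 4). Genes run from the lowest level at 20 µM (MRPL23, 13.5%) to the highest (MRPL10, 115%), and most points lie below the bands.

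At 10 µM, where there are replicates, 45 of 78 members were lower and 0 higher than in controls (edgeR's quasi-likelihood test, adjusted p under 0.05 over all 14857 genes tested). Of all genes tested, 9.79% were lower and 9.34% higher in that comparison. The log2 fold change was negative for all 78 members, with a median of -0.47 against 0.05 over all genes, so none was higher at an unadjusted p under 0.05 either, and DESeq2 and limma-voom also called 0 higher. With limma-voom or with the replicate block, 77 of the 78 were negative. These fold changes compare scaled levels. In CPM without the scaling factor, MRPL10 (101% of control), MRPL23 (105%), MRPS10 (106%) and MRPS14 (106%) averaged higher at 10 µM, so the scaling set their sign. With the replicate number as a block, 59 members were lower at 10 µM, where 15.2% of all genes were. In 49 members every 10 µM library lay below every control, which held for 12% of all genes. The 33 members that did not pass had log2 fold changes between -0.57 (MRPL11) and -0.04 (MRPS10 and MRPS14). Without 10 µM replicate 4 the count of lower members was 27, with a median of -0.43 against 0.01 over all genes. The share of all genes lower in that fit is not given here.

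When the 4 Lip-1 libraries of both doses were set against the 4 controls, 33 members were lower and 0 higher, where 6.69% of all 13101 genes tested were lower and 7.47% higher. The median log2 fold change was -0.59, against 0.08 over all genes, and all 78 values were negative. In 48 members every Lip-1 library lay below every control (10.5% of all genes), and in 0 every Lip-1 library lay above (18.1% of all genes). With the replicate block, 46 members were lower, where 10.4% of all genes were. How many members passed depended on single libraries. Leaving out control 1, 2, 3 or 4 gave 7, 2, 0 or 5 lower members. Leaving out 10 µM replicate 3 gave 14, replicate 4 gave 3, and the 20 µM library gave 47. The members' median log2 fold change stayed between -0.70 and -0.47 in these fits, and that over all genes between 0.04 and 0.10. The share of all genes called in these fits is not given here, so the counts do not set members apart from genes at large. Among the digit-named libraries alone the median was -0.52 (0.05 over all genes) with 43 members called. Among the letter-named libraries alone it was -0.77 (0.04 over all genes) with 0 called. The digit-named Lip-1 libraries were all at 10 µM, while the letter-named ones were 10 µM replicate 4 and the 20 µM library. The share of all genes called in these subsets is not given here either.

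The single library at 20 µM lay below the 10 µM libraries for most members. Against 10 µM, 43 members were lower and 0 higher, where 14.6% of all genes were lower and 11.7% higher. This test assumes that the lone library varies like the others, and it has no replicate check. With the replicate block 30 members were lower, where 11% of all genes were. The median log2 difference was -0.68 against 0.01 over all genes. It was positive for 5 members, MRPL10, MRPL45, MRPL52, MRPL54 and MRPS18B, all with an SE larger than the difference, and 0 were higher by DESeq2, by limma-voom or at an unadjusted p under 0.05. The 20 µM library was below every 10 µM library in 68 members (40.4% of all genes) and above every one in 4 (38.5% of all genes), the same 5 but for MRPL52. In 44 members the 20 µM library lay below all 10 µM libraries and these lay below all controls, an order that 8.6% of all genes showed. Each of the 10 µM libraries is shared by the comparisons with control and with 20 µM.

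**Figure D2:**
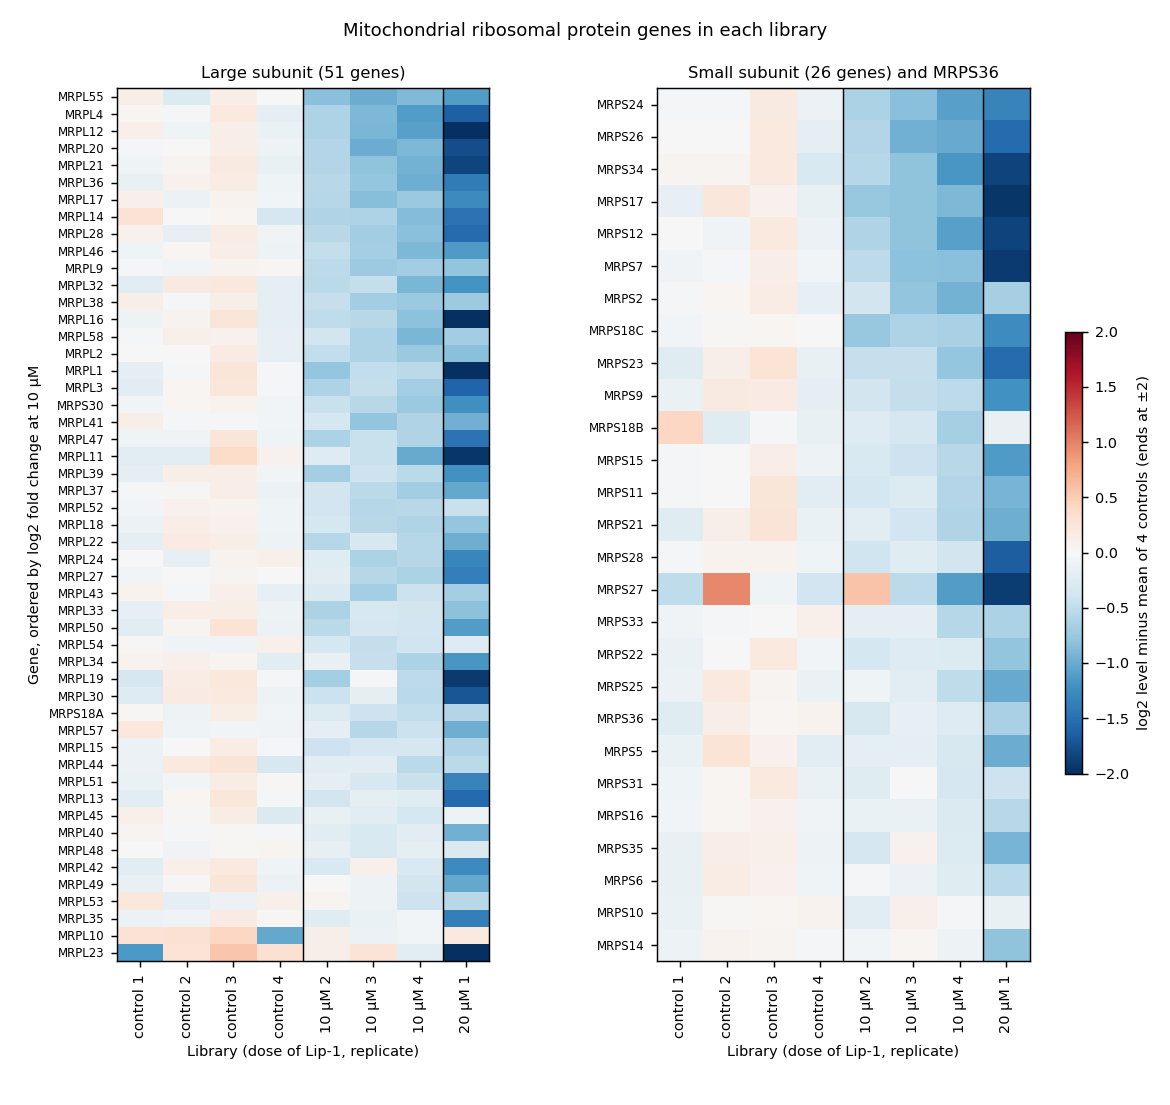
Colour gives each member's log2 level (TMM-scaled CPM) in each library minus the mean of the 4 controls, with members of the large subunit on the left and of the small subunit (with MRPS36) on the right, ordered by the log2 fold change at 10 µM. Treated columns are blue for most genes and darkest at 20 µM, while MRPL10, MRPL23, MRPS18B and MRPS27 show a control library apart from the other controls.

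The start regions of some members are shown because so many of these genes were lower together. The sequences are RefSeq's (build GRCh38.p14), on the gene's strand, from 100 bases before to 30 bases after the start of transcription. Capitals mark CCGGAAG or its reverse complement CTTCCGG, the core bound by ETS factors such as GABP, and AAGATGGC or its reverse complement, the core bound by YY1. MRPS34, MRPL20, MRPS12, MRPL12 and MRPL4 were among the members with large falls, and MRPS10 was among the least changed at 10 µM. MRPS34 lies at chr16:1773105-1773234 (minus strand), MRPL20 at chr1:1407264-1407393 (minus), MRPS12 at chr19:38930844-38930973 (plus), MRPL12 at chr17:81703267-81703396 (plus), MRPL4 at chr19:10251851-10251980 (plus) and MRPS10 at chr6:42217832-42217961 (minus).
MRPS34: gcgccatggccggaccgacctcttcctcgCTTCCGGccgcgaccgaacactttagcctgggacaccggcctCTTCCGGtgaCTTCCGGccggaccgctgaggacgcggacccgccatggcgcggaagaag
MRPL20: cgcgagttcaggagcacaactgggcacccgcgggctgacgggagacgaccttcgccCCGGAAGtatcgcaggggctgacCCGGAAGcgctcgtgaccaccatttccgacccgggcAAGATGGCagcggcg
MRPS12: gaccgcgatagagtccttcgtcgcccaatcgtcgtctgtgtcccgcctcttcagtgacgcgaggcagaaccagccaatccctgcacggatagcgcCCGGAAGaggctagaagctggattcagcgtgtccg
MRPL12: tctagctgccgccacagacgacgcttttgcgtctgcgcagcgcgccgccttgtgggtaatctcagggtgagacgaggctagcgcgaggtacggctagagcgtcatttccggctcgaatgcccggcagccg
MRPL4: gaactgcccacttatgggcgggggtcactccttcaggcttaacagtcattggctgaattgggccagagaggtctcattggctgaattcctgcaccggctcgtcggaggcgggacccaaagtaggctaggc
MRPS10: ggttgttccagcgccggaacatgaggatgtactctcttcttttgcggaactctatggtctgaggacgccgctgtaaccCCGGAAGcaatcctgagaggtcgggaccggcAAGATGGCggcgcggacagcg

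Among the 69 members with a start region in RefSeq's table, CCGGAAG occurred on either strand in 29 (42.0%) within 250 bases before to 50 bases after the start, against 18.9% of the 10507 tested genes with such a region and 10.7% of all 27305 regions. AAGATGGC occurred in 20 members (28.99%), against 5.26% of tested genes and 3.03% of all regions. Both occurred in 8 members. The NRF1 core GCATGCGC was in 6 members (8.70%, 5.38% of tested genes), the E-box CACGTG in 6 (8.70%, 10.0%) and the ZNF143 core ACTACAA in 6 (8.70%, 3.77%). The response at 10 µM had a median log2 fold change of -0.47 in the members with CCGGAAG and -0.50 in the members without it. With AAGATGGC it was -0.54, and without it -0.47. MRPS10 held both cores, and MRPL12 and MRPL4 held neither.

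Among genes of the large subunit, MRPL12 had the most negative log2 fold change in the comparison of both doses with control. Its product forms the flexible stalk that recruits translation factors, and also binds the mitochondrial RNA polymerase. MRPL12 (chromosome 17, 81703357 to 81707526) had 182, 153, 167 and 153 CPM in controls 1 to 4, 115, 91.3 and 87.3 CPM in 10 µM replicates 2 to 4, and 31.9 CPM at 20 µM. No treated library reached the lowest control. At 10 µM against control its log2 fold change was -0.87 (SE 0.13, edgeR adjusted p = 0.00395), and at 20 µM against 10 µM it was -1.62 (SE 0.22, edgeR adjusted p = 0.00132). With both doses together it was -1.13 (SE 0.33) and missed the threshold (edgeR adjusted p = 0.0502), but passed with the replicate number as a block (edgeR adjusted p = 0.0416).

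MRPL10 is the protein that anchors MRPL12 to the ribosome, and MRPL11 sits at the base of the same stalk. MRPL10 had 69.8, 67.3, 68.8 and 27.8 CPM in controls 1 to 4, 63.6, 53.5 and 59.8 CPM in 10 µM replicates 2 to 4, and 67.3 CPM at 20 µM. Control 4 lay far below the other controls, and the remaining groups were close to each other. Its log2 fold change at 10 µM was -0.12 (SE 0.29, edgeR adjusted p = 0.814), and its sign in the comparison of both doses turned with the setting. MRPL11 had 67.6, 64.6, 92.2 and 83.6 CPM in the controls, 68.6, 59.1 and 42.7 CPM at 10 µM, and 21.2 CPM at 20 µM. The first 10 µM library of MRPL11 overlapped the controls, the 20 µM library was lower than all others, and the difference at 10 µM was -0.57 (SE 0.21, edgeR adjusted p = 0.087, and 0.0166 with the replicate block).

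MRPL4 and MRPL3 were lower at 10 µM. MRPL4 (chromosome 19, 10251901 to 10260045), which lines the tunnel, had 186, 167, 186 and 158 CPM in controls, 122, 99.1 and 90.7 CPM at 10 µM, and 60.2 CPM at 20 µM. The 3 groups did not overlap. MRPL4 was called in each comparison, with log2 fold changes of -0.87 at 10 µM against control (SE 0.14, edgeR adjusted p = 0.00505) and -0.80 at 20 µM against 10 µM (SE 0.22, edgeR adjusted p = 0.027). MRPL3, which reaches toward the catalytic centre, averaged 144 ± 7.11 CPM at 10 µM (SD, n = 3) and 199 ± 17.6 CPM in controls (SD, n = 4), with 70.7 CPM at 20 µM. Its log2 fold change at 10 µM was -0.60 (SE 0.12, edgeR adjusted p = 0.012). In the comparison of both doses MRPL3 missed the threshold (edgeR adjusted p = 0.0522), and passed with the replicate block (0.0212).

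MRPL22, MRPL23 and MRPL24 encode proteins around the exit of the tunnel. MRPL22 averaged 39.2 ± 3.20 CPM at 10 µM (n = 3) against 50.4 ± 4.18 CPM in controls (n = 4), which is -0.49 on the log2 scale (SE 0.12, edgeR adjusted p = 0.0245). MRPL24 averaged 38.2 ± 5.59 CPM at 10 µM against 48.9 ± 4.78 CPM in controls, which is -0.48 on the log2 scale (SE 0.13, edgeR adjusted p = 0.0299). MRPL23 did not pass at 10 µM, where it differed from control by -0.06 on the log2 scale (SE 0.34, edgeR adjusted p = 0.925) and by -0.33 with the replicate block (edgeR adjusted p = 0.0722). Control 1 has no 10 µM library of its number. It had 10.9, 27.7, 32.2 and 29.4 CPM in controls 1 to 4, 26.9, 29.6 and 22.6 CPM in 10 µM replicates 2 to 4, and 3.37 CPM at 20 µM. Each 10 µM library of MRPL23 was below the control of its number, and the low values were in control 1 and in the 20 µM library, which both have replicate number 1. Its difference between 20 µM and 10 µM was the largest of any member at -2.97 on the log2 scale (SE 0.63, edgeR adjusted p = 0.00871), and it was -1.44 with the replicate block (edgeR adjusted p = 0.00393).

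MRPL1 forms the stalk on the other side of the subunit, where spent transfer RNA leaves. MRPL1 (chromosome 4, 77862520 to 77952790) had 49.5, 52.0, 60.0 and 54.2 CPM in controls, 33.8, 40.6 and 41.9 CPM at 10 µM, and 11.3 CPM at 20 µM. Its groups did not overlap, and the step from 10 µM to 20 µM was the larger one. The log2 fold change was -0.61 at 10 µM against control (SE 0.13, edgeR adjusted p = 0.0132) and -1.78 at 20 µM against 10 µM (SE 0.22, edgeR adjusted p = 0.000888).

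Other bacterial-type proteins of the large subunit include MRPL20, MRPL21 and MRPL19. MRPL20 averaged 69.1 ± 10.2 CPM at 10 µM (n = 3) against 112 ± 3.78 CPM in controls (n = 4), with 35.2 CPM at 20 µM. MRPL21 averaged 58.9 ± 6.68 CPM at 10 µM against 92.9 ± 5.76 CPM in controls, with 27.9 CPM at 20 µM. Both were called in each comparison. MRPL19 had 98.5, 131, 130 and 121 CPM in controls, 79.8, 123 and 94.4 CPM at 10 µM, and 34.2 CPM at 20 µM. Controls and 10 µM libraries of MRPL19 overlapped, and its log2 fold change of -0.41 at 10 µM (SE 0.18, edgeR adjusted p = 0.155) missed the threshold except with the replicate block (0.0086). Against 10 µM it was lower at 20 µM by a log2 difference of -1.54 (SE 0.30, edgeR adjusted p = 0.00637).

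MRPL55 and MRPL58 were lower at 10 µM without a further difference at 20 µM that passed the test. MRPL55 (chromosome 1, 228106679 to 228109312) had 42.7, 30.9, 38.8 and 39.2 CPM in controls, 22.6, 20.0 and 23.2 CPM at 10 µM, and 18.7 CPM at 20 µM. Its level at 10 µM was the lowest of any member relative to control (57.9%), with a log2 difference of -0.92 (SE 0.13, edgeR adjusted p = 0.00309), while the difference of -0.23 between 20 µM and 10 µM (SE 0.19, edgeR adjusted p = 0.419) did not pass. MRPL58, without a bacterial ribosomal counterpart, is a peptidyl-tRNA hydrolase that can rescue stalled ribosomes, and had 30.7, 25.7 and 22.4 CPM at 10 µM and 38.1, 39.5, 37.2 and 34.5 CPM in controls. Its 20 µM value of 24.8 CPM lay within the 10 µM range. MRPL58 fell by 0.63 on the log2 scale at 10 µM (SE 0.14, edgeR adjusted p = 0.0171).

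MRPL37, MRPL41 and MRPS30 also passed at 10 µM. MRPS30 had 134, 136, 132 and 133 CPM in controls, 106, 96.8 and 90.2 CPM at 10 µM, and 61.6 CPM at 20 µM, so the groups were far apart relative to the spread of its controls. Its log2 fold change at 10 µM was -0.58 (SE 0.10, edgeR adjusted p = 0.00672). MRPL37 averaged 174 ± 16.2 CPM at 10 µM (n = 3) against 231 ± 8.45 CPM in controls (n = 4), and MRPL41 averaged 63.7 ± 10.2 CPM against 86.8 ± 7.71 CPM. MRPL44, which has a fold like that of RNase III, gave -0.35 at 10 µM (SE 0.17, edgeR adjusted p = 0.179, and 0.0338 with the replicate block). MRPL49 and MRPL51, the members with the highest level per kb of median transcript length, had log2 fold changes of -0.16 and -0.32 at 10 µM and did not pass (edgeR adjusted p = 0.438 and 0.0646), though MRPL51 did with the replicate block (0.0282).

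**Figure D3:**
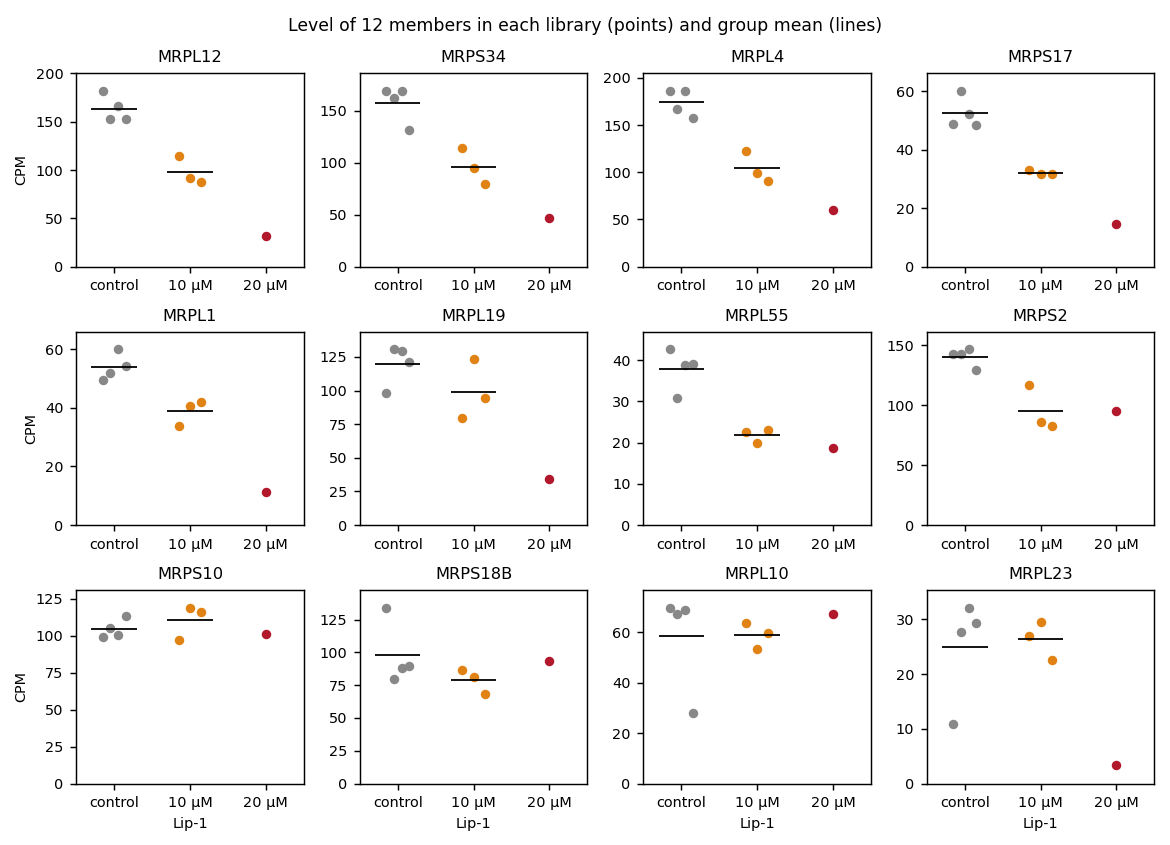
CPM of 12 members in each library by dose of Lip-1 (points), with lines at the means of the 4 controls and the 3 libraries at 10 µM. MRPL12, MRPS34, MRPL4, MRPS17 and MRPL1 step down at each dose, MRPL55 and MRPS2 have similar levels at 10 µM and 20 µM, MRPS10 and MRPS18B overlap across doses, and MRPL10 and MRPL23 have 1 control far below the rest.

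In the small subunit, MRPS34, MRPS17, MRPS12 and MRPS26 were among the 8 largest falls of the comparison of both doses with control. MRPS34 (chromosome 16, 1771890 to 1773155), which stabilises the small ribosomal RNA, had 169, 162, 169 and 131 CPM in controls, 114, 95.0 and 79.1 CPM at 10 µM, and 46.8 CPM at 20 µM. Its log2 fold change was -0.84 at 10 µM (SE 0.16, edgeR adjusted p = 0.00964). MRPS17 (chromosome 7, 55951819 to 55956501) had 48.7, 60.1, 52.3 and 48.5 CPM in controls, 33.2, 31.8 and 31.5 CPM at 10 µM, and 14.5 CPM at 20 µM. Neither gene had a treated library within the range of its controls. MRPS17 was lower at 10 µM by a log2 difference of -0.83 (SE 0.12, edgeR adjusted p = 0.00361), and lower again at 20 µM (-1.15, SE 0.20, edgeR adjusted p = 0.00363).

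MRPS12, part of the decoding centre, averaged 54.2 ± 7.68 CPM at 10 µM (SD, n = 3) against 88.03 ± 5.82 CPM in controls (SD, n = 4), with 26.3 CPM at 20 µM. Its log2 fold change at 10 µM was -0.83 (SE 0.13, edgeR adjusted p = 0.00494). MRPS26, a protein without a bacterial counterpart, averaged 28.9 ± 4.58 CPM at 10 µM against 47.6 ± 3.57 CPM in controls, with 17.7 CPM at 20 µM. It passed at 20 µM against 10 µM (log2 difference -0.71, SE 0.22, edgeR adjusted p = 0.0414), but not with the replicate block (0.0961).

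Several other small-subunit genes did not pass at 10 µM. MRPS10 had 98.8, 105, 100 and 113 CPM in controls, 96.9, 119 and 116 CPM at 10 µM, and 101 CPM at 20 µM. All 3 groups of MRPS10 overlapped, and its log2 fold change at 10 µM was -0.04 (SE 0.11, edgeR adjusted p = 0.815). MRPS14 gave the same value at 10 µM (SE 0.09, edgeR adjusted p = 0.8). It had 40.6, 43.4, 40.9 and 42.2 CPM in controls, 43.4, 45.3 and 44.1 CPM at 10 µM, and 25.7 CPM at 20 µM. Mean CPM, which is not scaled, was higher at 10 µM than in controls for MRPS10 (110 against 104) and MRPS14 (44.3 against 41.8). The difference of MRPS14 between 20 µM and 10 µM was -0.79 (SE 0.15, edgeR adjusted p = 0.00589, and 0.0684 with the replicate block). MRPS16 had 148, 147 and 141 CPM at 10 µM and 152, 154, 151 and 148 CPM in controls, and the difference of -0.19 (SE 0.09, edgeR adjusted p = 0.195) did not pass. Its 20 µM value was 111 CPM.

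MRPS2, whose bacterial relative binds late in assembly, averaged 95.3 ± 19.0 CPM at 10 µM (n = 3) against 141 ± 7.54 CPM in controls (n = 4), a log2 difference of -0.69 (SE 0.15, edgeR adjusted p = 0.014). Its 20 µM value of 95.2 CPM lay within the 10 µM range. MRPS5 averaged 87.1 ± 2.43 CPM at 10 µM against 94.4 ± 12.98 CPM in controls and did not pass there (edgeR adjusted p = 0.233), while its 20 µM value was 50.9 CPM. MRPS22 averaged 63.7 ± 3.30 CPM at 10 µM against 71.6 ± 3.72 CPM in controls (log2 fold change -0.30, SE 0.10, edgeR adjusted p = 0.073, and 0.0328 with the replicate block). MRPS31, at -0.20 (SE 0.14, edgeR adjusted p = 0.352), did not pass in any comparison. MRPS36, the member outside the ribosome, averaged 38.1 ± 1.90 CPM at 10 µM against 41.8 ± 4.14 CPM in controls (edgeR adjusted p = 0.16, and 0.0478 with the replicate block).

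MRPS27 had 66.4, 175, 80.7 and 71.8 CPM in controls 1 to 4, 145, 66.8 and 47.1 CPM in 10 µM replicates 2 to 4, and 26.3 CPM at 20 µM. The high libraries of MRPS27 both have replicate number 2. Its difference at 10 µM was -0.32 (SE 0.45, edgeR adjusted p = 0.683), but -0.53 with the replicate block (edgeR adjusted p = 0.00473).

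MRPS18A, MRPS18B and MRPS18C are paralogues that occupy different places in the ribosome. MRPS18C alone is classed below with the members that have a bacterial homologue, although the other paralogues are related to it. MRPS18C had 70.7, 70.9, 68.0 and 71.8 CPM in controls, 44.7, 48.7 and 50.6 CPM at 10 µM, and 31.7 CPM at 20 µM, a log2 fold change of -0.68 at 10 µM (SE 0.09, edgeR adjusted p = 0.00229). MRPS18A, of the large subunit, was lower as well, at -0.40 (SE 0.10, edgeR adjusted p = 0.0259), with 58.2, 52.3 and 52.4 CPM at 10 µM and 69.6, 60.5, 67.2 and 64.8 CPM in controls. MRPS18B gave -0.43 (SE 0.17, edgeR adjusted p = 0.116), with 86.9, 80.9 and 68.5 CPM at 10 µM and 134, 80.1, 88.5 and 89.9 CPM in controls, which overlapped. At 20 µM, MRPS18C had the only value of the paralogues below 50% of control (45.1%), against 71.7% for MRPS18A and 95.2% for MRPS18B. Whether the paralogues differed in response was not tested.

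By subunit, 34 of 51 large-subunit genes and 11 of 26 small-subunit genes were lower at 10 µM (41 and 17 with the replicate block), with median log2 fold changes of -0.50 and -0.41. By descent, 30 of 46 genes classed with a bacterial homologue were lower at 10 µM, with a median of -0.54. Of the 31 classed without one, which include MRPS18A and MRPS18B, 15 were lower, with a median of -0.40. Over all genes tested, 9.79% were lower at 10 µM, and 15.2% with the replicate block. At 20 µM against 10 µM the medians were -0.78 in the class with a bacterial homologue and -0.51 in the class without one, against 0.01 over all genes. These values describe the classes, and no test of the difference between them was made. Across the 78 genes, the log2 fold change at 10 µM had a Spearman correlation of -0.20 with the control level per kb and of 0.09 with transcript length, given as a description over genes that share the same libraries.

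Set beside other ribosomal and mitochondrial genes, the members had medians closer to those of the respiratory chain than to those of the cytosolic ribosome, a difference that was not tested. Median log2 levels relative to the control mean were -0.37, -0.46 and -0.58 for the members in 10 µM replicates 2 to 4 and -1.13 in the 20 µM library. For 77 nuclear-encoded subunits of the respiratory chain they were -0.23, -0.38 and -0.45 at 10 µM and -1.12 at 20 µM. For 79 cytosolic ribosomal proteins they were -0.07, -0.16 and -0.38 at 10 µM and -0.33 at 20 µM. For the 20 µM library against 10 µM, respiratory chain genes had a median log2 difference of -0.82 and cytosolic ribosomal protein genes of -0.13. The median over all genes was 0.01. At 10 µM, 33 of the 77 respiratory chain genes and 9 of the 79 cytosolic ribosomal protein genes were lower than in controls. With the replicate block, 41 respiratory chain genes and 30 cytosolic ribosomal protein genes were lower at 10 µM. Over all genes the share lower at 10 µM was 9.79% without the block and 15.2% with it. In control 3, members (0.13) and cytosolic ribosomal proteins (0.14) were both above the control mean.

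**Figure D4:**
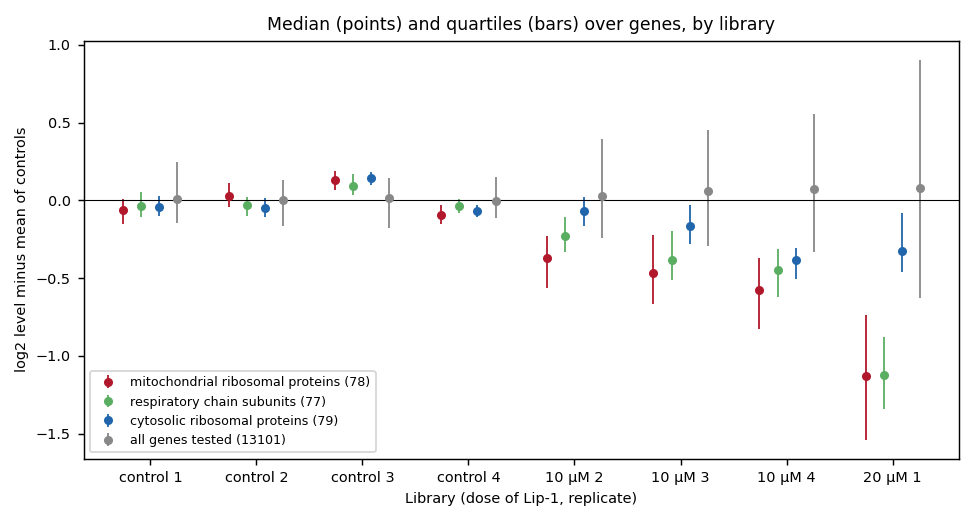
Median (points) and quartiles (bars) over genes of the log2 level minus the mean of the 4 controls, by library and dose, for the 78 members, 77 respiratory chain subunits, 79 cytosolic ribosomal proteins and all 13101 genes tested. The members stand at -1.13 at 20 µM, near the respiratory chain subunits at -1.12, and cytosolic ribosomal proteins are at -0.33.

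Lists of other genes that serve the mitochondrial ribosome had negative medians at 10 µM as well. Ribosomal proteins with other names numbered 5, of which 4 were lower at 10 µM, where 9.79% of all genes were. AURKAIP1 averaged 103 ± 5.78 CPM at 10 µM (n = 3) against 162 ± 14.2 CPM in controls (n = 4), a log2 difference of -0.78 (SE 0.11, edgeR adjusted p = 0.00257). GADD45GIP1 (-0.71, SE 0.13, edgeR adjusted p = 0.00767) and DAP3 (-0.35, SE 0.10, edgeR adjusted p = 0.0488) fell as well.

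Over all genes tested at 10 µM, 9.79% were lower and 9.34% higher. Assembly factors were lower in 15 of 28 at 10 µM and higher in 0, with a median of -0.48. They include MALSU1, which keeps the immature large subunit from joining the small one (-0.78, SE 0.11, edgeR adjusted p = 0.00317), the ribosomal RNA methyltransferase MRM3 (-0.95, SE 0.19, edgeR adjusted p = 0.0104) and the helicase DDX28 (-0.64, SE 0.12, edgeR adjusted p = 0.00899). Of 16 translation factors 6 were lower (10 with the replicate block, where 15.2% of all genes were) and 0 higher. TUFM, the elongation factor that brings transfer RNA to the ribosome, averaged 328 ± 45.7 CPM at 10 µM against 497 ± 35.0 CPM in controls, with 179 CPM at 20 µM. Its exchange factor TSFM (-0.67, edgeR adjusted p = 0.00862) and TACO1, which promotes translation of a cytochrome oxidase subunit (-0.57, edgeR adjusted p = 0.00451), also fell at 10 µM.

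Genes of mitochondrial transcription and RNA processing were lower in 11 of 17 at 10 µM (9.79% of all genes), with a median of -0.50. The helicase of mitochondrial DNA, TWNK (-0.97, SE 0.16, edgeR adjusted p = 0.005), the RNA polymerase POLRMT (-0.68, SE 0.13, edgeR adjusted p = 0.00804) and the RNA-stability factor TBRG4 (-0.58, SE 0.14, edgeR adjusted p = 0.0225) were among them. Import and proteostasis genes were lower in 13 of 19, with a median of -0.52. TOMM40, the pore of the outer membrane, averaged 189 ± 19.9 CPM at 10 µM against 353 ± 27.3 CPM in controls, with 100 CPM at 20 µM. The chaperonin HSPD1 (-0.85, edgeR adjusted p = 0.0075) and the protease subunit CLPP (-0.52, edgeR adjusted p = 0.0171) fell too.

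A few genes went the other way in the 20 µM library. The protease LONP1 had 510 CPM at 20 µM against 222 ± 24.2 CPM at 10 µM (log2 difference 1.20, SE 0.15, edgeR adjusted p = 0.00109), although at 10 µM it was lower than in controls (edgeR adjusted p = 0.0193). The helicase SUPV3L1 (1.08, edgeR adjusted p = 0.00109) and the chaperone HSPA9 (0.61, edgeR adjusted p = 0.0206) were likewise higher at 20 µM than at 10 µM and lower at 10 µM than in controls. LONP1, SUPV3L1 and HSPA9 were singled out for this after their values were seen.

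Of 9 transcriptional regulators of mitochondrial genes, 2 were lower and 0 higher at 10 µM, where 9.79% of all genes were lower and 9.34% higher. The coactivator PPRC1 averaged 78.7 ± 9.56 CPM at 10 µM (n = 3) against 133 ± 4.43 CPM in controls (n = 4), with 102 CPM at 20 µM, a log2 fold change of -0.88 at 10 µM (SE 0.12, edgeR adjusted p = 0.00249). NRF1, the transcription factor, gave -0.33 (SE 0.11, edgeR adjusted p = 0.0706), and the coactivator PPARGC1B gave -0.39 (SE 0.17, edgeR adjusted p = 0.14, and 0.0153 with the replicate block). MYC, singled out after its values were seen, had 708 CPM at 20 µM against 230 ± 19.3 CPM at 10 µM, a log2 difference of 1.62 (SE 0.18, edgeR adjusted p = 0.000681).

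**Figure D5:**
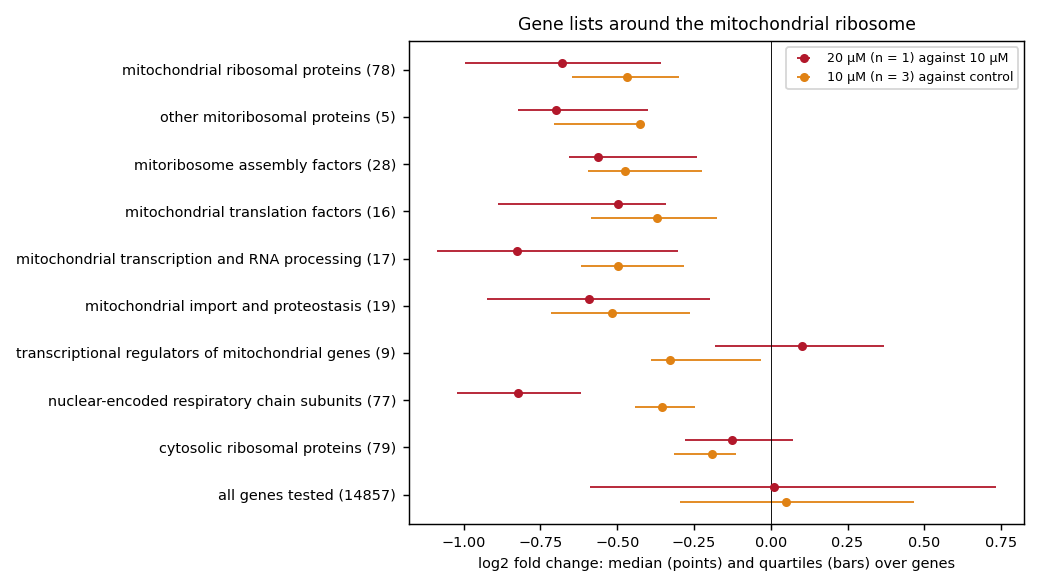
Median (points) and quartiles (bars) over genes of the log2 fold change at 20 µM against 10 µM and at 10 µM against control, for the members and lists of related genes (numbers tested in brackets). The members' medians of -0.68 and -0.47 lie left of all genes tested (0.01 and 0.05), and the regulators' median is above 0 at 20 µM against 10 µM.

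Of the members, 17 have a neighbour on the other strand that starts within 1000 bases and is read away from it, in GENCODE release 29. MRPL46 and MRPS11 are such neighbours of each other, 34 bases apart, with log2 fold changes of -0.68 (edgeR adjusted p = 0.00947) and -0.41 (edgeR adjusted p = 0.0537, and 0.0161 with the replicate block) at 10 µM. Of the neighbours that are not members, 14 were tested, of which 2 were lower and 1 was higher at 10 µM, with a median log2 fold change of -0.03. Over all genes tested, 9.79% were lower and 9.34% higher. Some of the neighbours had low levels, among them SLC7A7 (0.25 CPM in controls), LRRC46 (1.45) and PNPLA7 (1.48), so a change in them is harder to detect. The 14 members beside the 14 tested neighbours had a median of -0.51, and 11 of these members were lower. TCP1, a cytosolic chaperonin subunit that starts 63 bases from MRPL18, fell with it (-0.93, SE 0.12, edgeR adjusted p = 0.00234, and -0.50, edgeR adjusted p = 0.0135, for MRPL18). NDUFS6, a complex I subunit next to MRPL36, fell too (-0.52, SE 0.12, edgeR adjusted p = 0.0169). NDUFB5, another complex I subunit 36 bases from MRPL47, rose at 10 µM (0.39, SE 0.11, edgeR adjusted p = 0.0411), while MRPL47 fell (-0.57, edgeR adjusted p = 0.0112). By their GENCODE bounds the genes of such a pair do not overlap. Whether the counting used strand or other gene bounds is not given in the sources used here.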

How the data were processed

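Per the file header and the values, the deposited table holds counts per gene and library, whole numbers and not normalized. The submitters' processing notes name build hg38 and the tools HISAT2, StringTie, limma, DESeq2 and bcl2fastq 2.0, whose roles are not given in the sources used here. Low counts were not spaced as single reads (401 entries at 1 count, 2958 at 4), so a count may not be 1 read. Per the labels' protocols, ribosomal RNA was depleted from total RNA. Lines that name no gene (9) stayed out of totals and tests.

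CPM, the count per 1000000 counts of the library's total, was computed here without the scaling factor. If a count is close to 1 read, counting error is small at these depths and the replicate spread sets the precision. R 4.3.3 with edgeR 4.0.16 was used, with filterByExpr, TMM scaling (factors 0.9029 to 1.085), the two-sided quasi-likelihood test and Benjamini-Hochberg adjustment at 0.05 over all genes tested. The factors were 1.018 to 1.085 in the Lip-1 libraries and 0.9029 to 1.000 in controls. Relative to controls, scaled levels under Lip-1 are therefore lower than CPM. Lip-1 (n = 4) was set against control (n = 4), and a 3-level fit gave 10 µM (n = 3) against control and 20 µM (n = 1) against 10 µM. The SE is the log2 fold change over the square root of F. The fits were also run on simulated data, with the same spread for all genes, the same effect at both doses and no replicate effect. That run could not check the replicate block or the recovery of a difference between doses. Alternatives were RLE and upper-quartile scaling, other filters, DESeq2 1.42.0, limma-voom (limma 3.58.1), the naming pattern of the libraries, a replicate block and leaving out each library.

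Treated and control libraries share replicate numbers. Across genes, deviations from the group means correlated between same-numbered libraries, at r = 0.14, 0.23 and 0.42 for 10 µM and control replicates 2 to 4. For replicates 1 to 4 of the pooled groups r was 0.45, 0.25, 0.39 and 0.26. Between unlike numbers r ran from -0.30 to 0.13 for 10 µM and control, and from -0.48 to 0.31 in the pooled groups. The highest of these joined treated replicate 3 to control 2, both digit-named, so the values do not separate number from naming pattern. The submitters' library names share a stem within the pairs of replicates 1 to 3, but not within replicate 4. The name of control 4 instead extends that of control 1, so the pairing of replicate 4 rests on its number alone in the labels. The numbers were taken to pair the libraries, as an alternative fit. With the replicate number as a block, 46, 59 and 30 members were lower for Lip-1 against control, 10 µM against control and 20 µM against 10 µM, where 10.4%, 15.2% and 11% of all genes were.

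The members, lists and tests were chosen with earlier results of these data known. Named members are those past the threshold with the 8 largest falls, 20 chosen for their role, the 3 largest and 3 smallest differences at 20 µM against 10 µM, the 3 highest and 3 lowest control levels per kb, and the 3 genes of each related list with the smallest p. MRPL19, MRPL42, MRPL45, MRPL52, MRPS10, MRPS14, MRPS33 and the genes with divergent neighbours were named after their values were seen. Positions are from GENCODE release 29 (GRCh38), which held all 78 members. Start regions are from RefSeq (GRCh38.p14), and for 59 of the 69 members found there the transcribed end lay near the start of a GENCODE transcript of that gene.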

Additional observations from a re-analysis of the deposited data

Results flagged for a closer look

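Each member's 4 controls were checked for a library far from the other 3, and 2 of the 78 genes had one, where chance gives about 1 in 20. MRPL10 had 27.85 CPM in control 4, against 67.27 to 69.81 CPM in the other controls. MRPS27 had 174.7 CPM in control 2, against 66.4 to 80.69 CPM in the other controls.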

How the results depend on the processing

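No alternative called a member higher. The members' median log2 fold change was negative in every fit run, for each comparison. For Lip-1 against control, where 33 members were lower, DESeq2 gave 51 and the letter-named libraries alone gave 0, and leaving out a library gave 0 to 47. For 10 µM against control (45 lower), leaving out a library gave 27 to 47. For 20 µM against 10 µM (43 lower), leaving out a library gave 36 to 49, and without the 20 µM library there is no value. The replicate block gave 46, 59 and 30. Among these alternatives, the share of all genes called is given above for the replicate block alone. The other counts therefore do not set members apart from genes at large. The cause of these shifts was not tested. Upper-quartile scaling moved the median of all genes to 0.14, with the members' median at -0.53. Of 35 named members, MRPL10 alone changed sign for Lip-1 against control, with log2 fold changes of 0.040 by limma-voom, 0.026 with the replicate block, 0.24 in the letter-named libraries alone, and -0.31 to 0.054 when a library was left out (0.0029 without control 1, 0.0099 without control 2, 0.054 without control 3). Over 630 refits of named members for Lip-1 against control, 483 kept direction and side of the threshold, 107 lost and 34 gained the call, and 6 changed sign. Only the 16 named members called in the main fit could lose the call, so the 107 come from their refits alone. The lowest count of a member was 419, though a count may not be 1 read, and the 20 µM dose rests on 1 library.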
